A study of Mus musculus with 6 samples.

Results

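Described here are 4 keratins of simple epithelia: Krt7 and Krt8, which are type II chains, and Krt18 and Krt19, which are type I chains. They are not all keratins of such epithelia, and Krt20 and Krt23 are counted below among the other keratin genes. The 4 described keratins are called the simple keratins below. These are 4 of the 18193 genes with a probe set of their own, and all 6 probe sets assigned to exactly 1 of them were taken: 3 for Krt8 and 1 for each of the others. The genes were chosen by their measured difference between these same arrays, so their own values are given as a description without a test. The arrays (Affymetrix Mouse430 version 2) measured total RNA of Oct4-Gip cells, a mouse embryonic stem cell line that carries a reporter under Oct4 control, kept in serum with the cytokine LIF. In 3 samples Panct1, a long noncoding RNA, was the target of an esiRNA (an enzymatically cut pool of short double-stranded RNAs), and 3 control samples received an esiRNA against Luciferase, which these cells lack. Both groups consisted of 60000 cells reverse transfected with 800 ng of esiRNA and collected after 72 hours, and the comparison asks which transcripts respond to depletion of Panct1. No probe set used here is named as Panct1, so its depletion was not assessed, and each group rests on a single line and a single esiRNA pool.

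Keratins are the intermediate filament proteins of epithelia. A type I chain and a type II chain pair as an obligate heterodimer, and such dimers assemble into filaments that meet the membrane at desmosomes and hemidesmosomes. Krt8 and Krt18 are the first keratins of the mouse embryo and mark the trophectoderm of the blastocyst, and Krt7 and Krt19 are further chains of simple and ductal epithelia. An unpaired keratin chain is unstable and degraded, which is why changes of both types are set side by side below. The arrays measured RNA only, so the amounts and pairing of the proteins were not assessed.

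Krt7, Krt8 and Krt18 lie on mouse chromosome 15 in the cluster of type II keratin genes, where Krt18 is the type I gene at its edge, and Krt19 lies on chromosome 11 in the type I cluster. In the RefSeq gene table (GRCm38.p6), 23 of the 31 genes between Krt7 and Krt8 are keratin genes, and the 2 genes between Krt8 and Krt18 are the predicted genes Gm36026 and Gm41404. RefSeq promoter windows (300 bases, with the annotated start at base 251) were at hand for 3 members and are printed because these genes moved together. The windows lie at chr15:101412153-101412452 (plus strand) for Krt7, chr15:102004293-102004592 (minus strand) for Krt8 and chr15:102027966-102028265 (plus strand) for Krt18. Capitals mark matches, on either strand, to the 7 motifs searched.
Krt7: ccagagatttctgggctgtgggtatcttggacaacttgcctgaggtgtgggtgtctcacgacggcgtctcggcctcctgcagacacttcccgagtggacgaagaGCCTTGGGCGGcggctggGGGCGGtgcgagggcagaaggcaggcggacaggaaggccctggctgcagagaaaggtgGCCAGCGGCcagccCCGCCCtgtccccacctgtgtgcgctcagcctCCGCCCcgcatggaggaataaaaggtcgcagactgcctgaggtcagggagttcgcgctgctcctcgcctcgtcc
Krt8: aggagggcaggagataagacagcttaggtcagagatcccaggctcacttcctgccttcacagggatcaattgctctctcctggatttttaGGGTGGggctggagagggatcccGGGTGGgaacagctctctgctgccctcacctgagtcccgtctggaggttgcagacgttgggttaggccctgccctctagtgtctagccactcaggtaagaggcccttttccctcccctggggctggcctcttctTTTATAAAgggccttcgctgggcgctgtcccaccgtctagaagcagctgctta
Krt18: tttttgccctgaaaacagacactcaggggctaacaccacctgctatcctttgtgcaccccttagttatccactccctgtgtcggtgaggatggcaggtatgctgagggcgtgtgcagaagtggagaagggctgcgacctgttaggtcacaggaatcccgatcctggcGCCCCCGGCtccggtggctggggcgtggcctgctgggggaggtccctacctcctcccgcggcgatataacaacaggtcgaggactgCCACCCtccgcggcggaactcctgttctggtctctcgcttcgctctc
The letters of the TATA box, TATAAA, were found in Krt8 at bases 250 to 255, with an overlapping reverse match at 248 to 253. Both matches span the annotated start at base 251, and whether they act as a TATA box was not tested. Of all 32851 RefSeq windows, 13.6% hold these letters. The GC box GGGCGG occurred 4 times in Krt7 and is held by 35.7% of all windows. The AP-2 motif GCCNNNGGC occurred at 2 positions in Krt7, the first overlapping a GC box, and at 1 position in Krt18, and it is held by 16.6% of windows. The CACCC box CCACCC occurred at 2 positions in Krt8 and at 1 position in Krt18, against 31.5% of windows. The letters of the AP-1 motif TGANTCA (7.81% of windows), the ETS motif CCGGAAG (8.86%) and the TEAD motif GGAATG (14.7%) are not in these windows. Only these exact letters were searched, so variant sites for the same factors could be present. GC content was 66.3% in the Krt7 window, 58.0% in that of Krt8 and 61.3% in that of Krt18, where the median window has 52.7%.

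All values below are log2 RMA signals as deposited, and every array had a median between 6.07 and 6.09 and a lower quartile between 4.65 and 4.70. Across probe sets the correlation was 0.997 to 0.998 within a group and 0.991 to 0.993 between groups. The labelled cell type was checked on 10 embryonic stem cell markers, whose mean signal was 12.54 to 12.57 on the Panct1 knockdown arrays and 12.74 to 12.83 on the control arrays. None of the 10 lay below the lower quartile. Sox2 averaged 12.91 ± 0.042 in Panct1 knockdown and 13.05 ± 0.091 in control (SD, n = 3 each), and Nanog 12.71 ± 0.067 and 12.57 ± 0.042, neither passing the test described below. Pou5f1 averaged 13.69 ± 0.095 in Panct1 knockdown and 13.93 ± 0.032 in control. Its difference of -0.24 passed (limma adjusted p = 0.0324), but not without any 1 array other than Panct1 knockdown replicate 3 (0.00184 to 0.110 over 13 settings). Nanog, which differed by 0.15, passed where the variance followed an intensity trend with robust fitting (adjusted p = 0.0313; 0.0313 to 0.374 over 13 settings).

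Each of the 4 keratins was higher in Panct1 knockdown than in control, by 3.82-fold to 5.29-fold. Krt8, the type II chain of the first embryonic keratin pair, had signals of 12.07, 12.22 and 12.27 on the Panct1 knockdown arrays, against 10.09, 9.68 and 9.94 on the control arrays. The difference was 2.28 (SE 0.11), and the lowest knockdown array lay 1.98 above the highest control array. The other probe sets of Krt8, which by their names hold probes that may also bind similar transcripts, differed by 2.35 and 2.21. All 3 Krt8 probe sets thus fell within 0.14 of each other, and each ranked the 3 control arrays in the same order.

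Krt18, the type I partner of Krt8, had signals of 11.18, 11.52 and 11.84 on the Panct1 knockdown arrays, against 9.43, 9.14 and 9.32 on the control arrays. The difference was 2.22 (SE 0.15). Its knockdown arrays were the most scattered among the 6 probe sets, with an SD of 0.33 against 0.15 in control, while those of the 3 Krt8 probe sets had an SD of 0.10 to 0.14. Even so, the lowest knockdown array stood 1.75 above the highest control array.

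Krt19, a small type I keratin that lacks most of the tail domain, had signals of 11.41, 11.51 and 11.61 on the Panct1 knockdown arrays, against 9.15, 9.16 and 9.01 on the control arrays. The difference was 2.40 (SE 0.079), the largest of the 4 genes, and the gap between the groups was 2.25. Krt7, a type II keratin of ducts and of placental trophoblast, had signals of 8.42, 8.42 and 8.47 on the Panct1 knockdown arrays, against 6.60, 6.64 and 6.27 on the control arrays. The difference was 1.93 (SE 0.10), the smallest of the 4. Krt7 was also the dimmest, its control mean standing above 56.7% of all probe sets where those of the other 5 probe sets stood above 82.3% to 87.9%. Whether dimness bears on the size of its change was not tested.

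**Figure D1:**
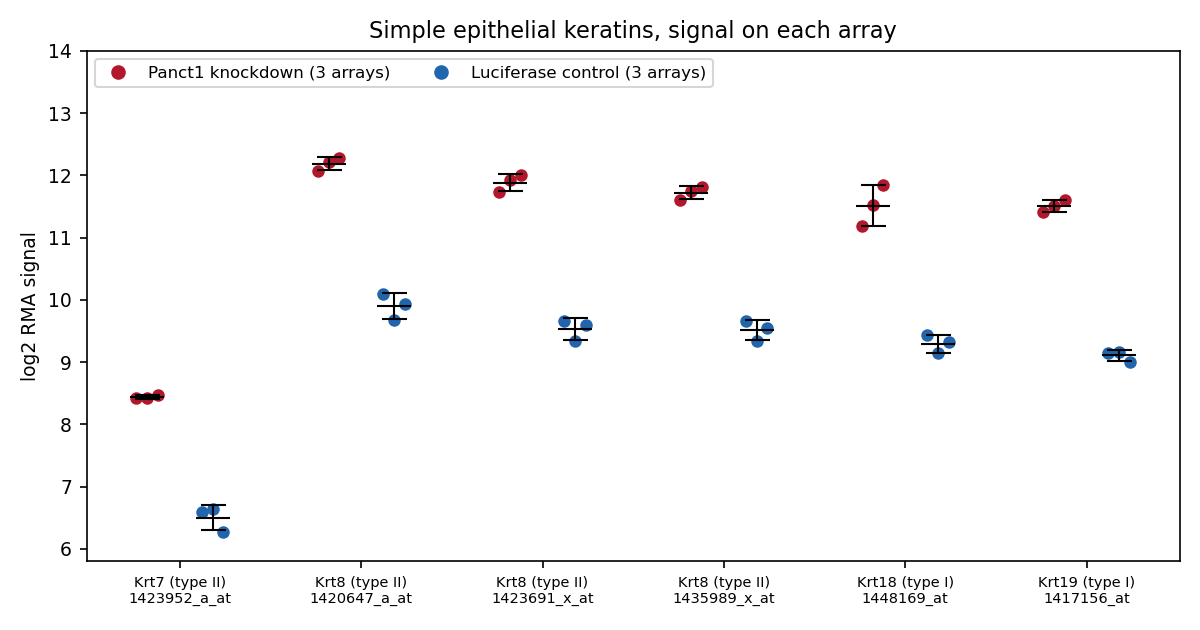
Log2 RMA signal of the 6 probe sets of Krt7, Krt8, Krt18 and Krt19 (vertical axis) on each of 3 Panct1 knockdown and 3 Luciferase control arrays. Points are arrays, and bars are the mean and SD of 3 arrays. The groups are separated at every probe set, by 1.75 at Krt18 to 2.25 at Krt19.

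The groups did not overlap at any of the 6 probe sets, which follows from how the genes were chosen. Over all probe sets, 14.2% had every knockdown array above every control array. Of the 18193 genes, 27 had a difference larger than that of Krt7, the other 3 keratins among them. The array holds the RNA of many cells together, so a rise in the number of keratin-expressing cells and a rise of keratin RNA per cell cannot be told apart.

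The keratins also varied within a group. On the knockdown arrays all 4 genes were highest on replicate 3, by 0.033 above the group mean for Krt7, 0.083 for Krt8, 0.10 for Krt19 and 0.33 for Krt18. On the control arrays the partners Krt8 and Krt18 were both highest on replicate 1, by 0.19 and 0.13 above their means, and both lowest on replicate 2, at -0.22 and -0.16. Krt7 and Krt19 instead were both lowest on control replicate 3, at -0.23 and -0.097. These deviations rest on 3 arrays a group and are given as a description.

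To set the type II and type I chains against each other, the signal of the type I gene was subtracted from that of the type II gene on each array, and the groups' means of this difference were compared. The offset between probe sets drops out of that comparison, and a value of 0 means that both chains changed by the same factor. Krt8 minus Krt18 was 0.89, 0.70 and 0.43 on the Panct1 knockdown arrays, against 0.66, 0.54 and 0.62 on the control arrays. The groups overlapped, and the mean changed by 0.067 (SE 0.14), a factor of 1.05. The sign of that change was not stable, since it was -0.042 without Panct1 knockdown replicate 1 and 0.19 without Panct1 knockdown replicate 3. With the other Krt8 probe sets in place of the brightest it was 0.13 and -0.0067.

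Krt8 minus Krt19 was 0.66, 0.71 and 0.66 on the Panct1 knockdown arrays, against 0.94, 0.52 and 0.93 on the control arrays, a change of -0.12 (SE 0.14) with the knockdown arrays inside the range of the controls. It was -0.048 without Luciferase control replicate 1 and -0.26 without Luciferase control replicate 2. Krt7 minus Krt18 was -2.76, -3.10 and -3.37 on the Panct1 knockdown arrays, against -2.83, -2.50 and -3.05 on the control arrays. The groups again overlapped, with a change of -0.28 (SE 0.24) that was -0.44 without Panct1 knockdown replicate 1 and -0.14 without Panct1 knockdown replicate 3. These 3 pairings showed no shift larger than the spread between arrays, and with SEs of this size a modest shift could go unseen.

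Krt7 minus Krt19 was -2.99, -3.09 and -3.14 on the Panct1 knockdown arrays, against -2.55, -2.52 and -2.74 on the control arrays. Here every knockdown array lay below every control array, and the change of -0.47 (SE 0.082) means that Krt7 changed by 0.722 times the factor of Krt19. For comparison, the groups did not overlap for 38.3% of all genes in their own signals. The change lay between -0.54 and -0.43 on leaving out any 1 array. Within a type, Krt7 minus Krt8 changed by -0.35 (SE 0.19) and Krt18 minus Krt19 by -0.19 (SE 0.17), and the groups overlapped in both. In order of their differences, Krt19, Krt8, Krt18 and Krt7, no neighbours were thus separated beyond the spread of their arrays.

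**Figure D2:**
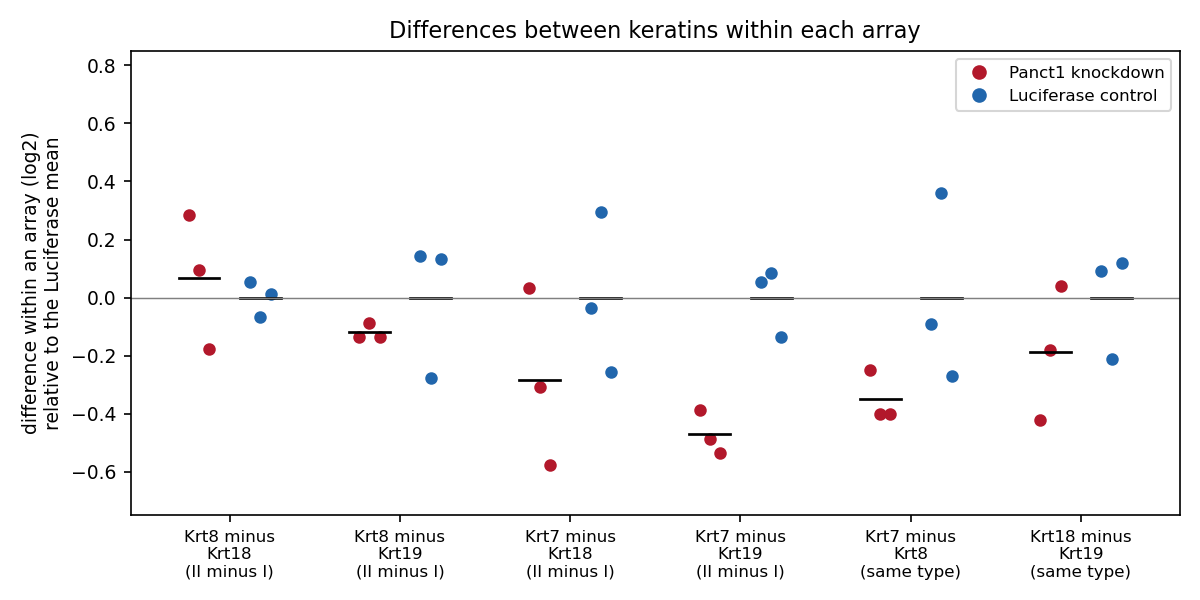
Difference in log2 signal between a pair of keratins on the same array, relative to the mean of that difference in Luciferase control (vertical axis), for 4 pairings of a type II with a type I chain and 2 pairings within a type. Points are arrays and horizontal bars are group means. The groups are apart only for Krt7 minus Krt19, where the knockdown mean is -0.47.

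The other keratin genes were tested in a fit across all genes with limma, at an adjusted p under 0.05. Of 44 measured genes, 23 of type I and 21 of type II, 3 rose and 1 fell, or 9.09%, where 12.9% of all genes rose and 11.3% fell. Their differences ran from -0.30 to 0.36, with a median of -0.038 beside -0.017 for all genes. All lay closer to 0 than the smallest difference among the 4 described keratins. That follows in part from choosing those 4 by these same values. Krt20 and Krt23, type I keratins also found in simple epithelia, differed by 0.047 and -0.08 (limma adjusted p = 0.742 and 0.400). Both are named here after their values were seen. The 3 that rose are of type I. Krt27, a keratin of the hair root sheath, had signals of 5.02, 4.86 and 4.91 in Panct1 knockdown, against 4.68, 4.56 and 4.46 in control, a difference of 0.36 (adjusted p = 0.00930). Krt17, a keratin of basal and injured epidermis, had signals of 8.60, 8.50 and 8.43 in Panct1 knockdown, against 8.21, 8.26 and 8.18 in control. It rose by 0.29 (adjusted p = 0.0131), but its second probe set differed by -0.0033, and the mean of its probe sets did not pass (0.0989).

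Krt16, a keratin of stressed epidermis, rose by 0.23 (limma adjusted p = 0.0432), a call lost in 7 of 13 settings (0.0338 to 0.126), among them without Panct1 knockdown replicate 1, 2 or 3 and without Luciferase control replicate 1 or 3. Krt76, a type II keratin of the oral mucosa, fell by 0.30 to 5.37 ± 0.11 in Panct1 knockdown, against 5.67 ± 0.060 in control (SD, n = 3 each; limma adjusted p = 0.0206). That call was lost without Panct1 knockdown replicate 1 or 2 and without Luciferase control replicate 2 or 3 (0.0102 to 0.0811 over 12 settings). The count of called keratin genes was 2 without Panct1 knockdown replicate 1, Panct1 knockdown replicate 2 or Luciferase control replicate 3. Adjusted over all probe sets, of which 7.82% rose and 6.76% fell, 3 of the 55 for these genes rose and 1 fell, and the probe set counted there in place of Krt16 was a second one for Krt14, a basal keratin named here after its values were seen, at 0.31 (adjusted p = 0.0380). Krt5, the basal type II keratin, differed by -0.17 (adjusted p = 0.0924).

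Among 16 other intermediate filament genes 4 rose and 5 fell (56.2% changed, where 24.2% of all genes did), with a median of -0.0050. The neurofilament genes moved apart. Nefm, the medium chain, had signals of 8.66, 8.87 and 8.88 in Panct1 knockdown, against 6.78, 6.90 and 7.02 in control, and rose 3.74-fold (limma adjusted p = 4.44e-06). Nefl, the light chain, rose 2.02-fold (6.82e-04), while Nefh, the heavy chain, fell by 0.76 to 9.26 ± 0.050 in Panct1 knockdown, against 10.02 ± 0.16 in control (3.19e-04). Vim, which encodes the vimentin of mesenchymal and many cultured cells, had signals of 10.74, 10.52 and 10.60 in Panct1 knockdown, against 11.09, 11.13 and 11.28 in control, and fell by 0.55 (adjusted p = 0.00146). All 3 probe sets of Vim passed as fallen.

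Genes for proteins that anchor keratin filaments rose in 9 of 16 and fell in 0 by limma. That is 56.2% called, where 12.9% of all genes rose and 11.3% fell. At an unadjusted p under 0.05 in limma the counts were 10 and 0. The median difference of the list was 0.26. Dsp, the desmoplakin that binds keratins to desmosomes, had signals of 11.61, 11.46 and 11.09 in Panct1 knockdown, against 8.95, 8.98 and 9.20 in control, a difference of 2.34 (SE 0.13; limma adjusted p = 8.83e-06). Of 3 probe sets for Dsp, 2 passed and the lowest differed by -0.013. The desmosomal cadherins Dsc2 and Dsg2 rose 4.02-fold and 2.40-fold, with 2 of 2 and 5 of 6 probe sets past the threshold. As means of their probe sets Dsc2 differed by 1.32 in place of 2.01 and Dsg2 by 0.81 in place of 1.26. Ppl, the periplakin that links keratins to the cell cortex, rose by 0.77 to 7.04 ± 0.055 in Panct1 knockdown, against 6.27 ± 0.13 in control.

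Of 14 measured genes for proteins that bind, fold or cleave keratins 3 rose and 1 fell (28.6%), with a median of -0.012. That share is near the 24.2% of all genes, so the count is no result about this list. Sfn, the epithelial 14-3-3 sigma, had signals of 9.86, 10.11 and 10.27 in Panct1 knockdown, against 8.43, 8.46 and 8.66 in control, and rose 2.96-fold (limma adjusted p = 2.76e-05). Fam83h, whose protein brings casein kinase to keratin filaments, rose by 0.76 (3.22e-04). Casp6, a caspase that cleaves Krt18, rose by 0.42 (0.0115), but the mean of its 2 probe sets did not pass (0.107). Dnajb6, an Hsp40 co-chaperone that binds Krt18, fell by 0.31 (0.00508) to 12.40 ± 0.030 in Panct1 knockdown, against 12.71 ± 0.015 in control, with 3 of 4 probe sets past the threshold.

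Transcription factors with a known tie to simple keratin genes or to epithelial identity rose in 9 of 26 and fell in 2 (42.3%), with a median of 0.16. Of all genes, 12.9% rose and 11.3% fell. Ets1, of the ETS family, rose 2.22-fold (limma adjusted p = 2.58e-05), with 2 of 4 probe sets past the threshold. The brightest set differed by 1.15 and the mean of its probe sets by 0.63. Without Panct1 knockdown replicate 1 or 2 another of its probe sets was the brightest, which differed by 0.36 without replicate 1 (0.0325) and by 0.29, not past the threshold, without replicate 2 (0.106). Cdx2, which sets up the trophectoderm, had signals of 7.14, 7.36 and 7.14 in Panct1 knockdown, against 6.52, 6.44 and 6.38 in control. Jun, a subunit of AP-1, rose by 0.86 (3.61e-04) and Tfap2c, the AP-2 factor of trophoblast, by 1.00 (6.37e-04), with all probe sets of both past the threshold.

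Other genes of simple epithelia rose in 15 of 24 and fell in 0 by limma (17 and 0 at an unadjusted p under 0.05), or 62.5%, with a median of 0.38. The share over all genes was 12.9% rising and 11.3% falling. The claudins Cldn7 and Cldn4, of the tight junction, rose 3.41-fold and 2.36-fold (adjusted p = 4.44e-06 and 9.75e-06). Cldn7 had signals of 11.28, 11.50 and 11.54 in Panct1 knockdown, against 9.65, 9.63 and 9.73 in control. St14, the membrane protease matriptase, rose 2.28-fold and Ap1m2, a clathrin adaptor subunit of epithelia, rose 2.12-fold. These lists were chosen with earlier results of these data known, so their counts are descriptions set beside the share over all genes.

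**Figure D3:**
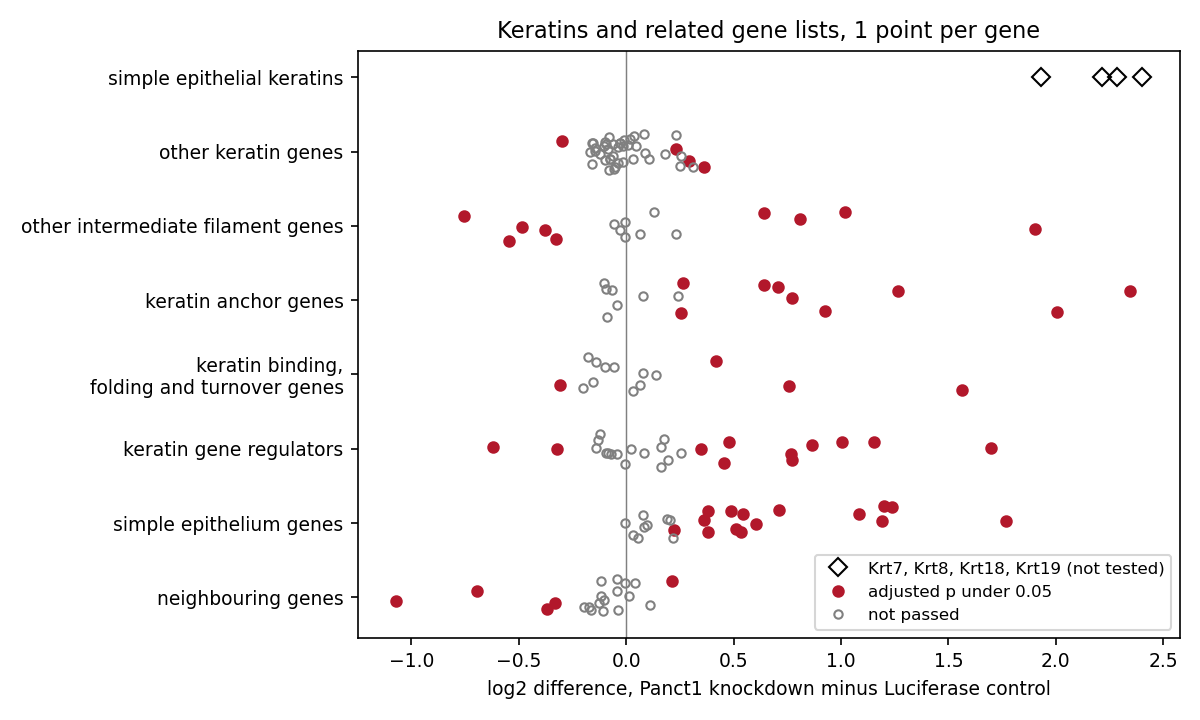
Log2 difference of Panct1 knockdown minus Luciferase control (horizontal axis) for the 4 simple keratins, 44 other keratin genes and 6 further lists, with 1 point per gene. Filled points passed at an adjusted p under 0.05 in limma, open circles did not, and the open diamonds of the simple keratins were not tested. The diamonds lie between 1.93 and 2.40, while the other keratin genes lie between -0.30 and 0.36. This separation follows in part from choosing the 4 simple keratins by these same values.

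The 20 genes nearest to the keratin loci, 5 on each side of every locus with keratins left out, held 1 that rose and 4 that fell, with a median difference of -0.11. That is 25% called, near the 24.2% of all genes, so the count is no result about the neighbours. These were 10 genes beside the chromosome 15 cluster, which serve for Krt7, Krt8 and Krt18 alike, and 10 beside Krt19. Csad, an enzyme of taurine synthesis on chromosome 15, had signals of 8.02, 8.12 and 7.97 in Panct1 knockdown, against 9.14, 9.06 and 9.13 in control, and fell by 1.07 (limma adjusted p = 1.42e-05). Tns2, a tensin of focal adhesions also on chromosome 15, fell by 0.37 (0.0306), a call lost on leaving out Luciferase control replicate 2 or either of Panct1 knockdown replicates 1 and 3 (0.0158 to 0.0893 over 13 settings). Beside Krt19, P3h4, of the prolyl hydroxylase complex of collagen, fell by 0.70 (1.93e-04). Hap1, which binds huntingtin, fell by 0.33 (0.0131), but not past the threshold without Panct1 knockdown replicate 2 or Luciferase control replicate 1 (0.00862 to 0.0555 over 13 settings). The count of called neighbours was 3 without Panct1 knockdown replicate 2, Luciferase control replicate 1 or Luciferase control replicate 2.

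To find the genes most like the keratins, each gene was centred on its control mean and the root mean square distance of its 6 values to the mean profile of the 4 keratins was taken. The keratins themselves lay at 0.106 (Krt8), 0.125 (Krt18), 0.148 (Krt19) and 0.230 (Krt7). Each of them enters that mean profile, which shortens its distance, so these values are not like for like with those of other genes. The nearest other genes were Gbp2b at 0.110 and, farther off at 0.186, Gbp2, which encode interferon-inducible GTPases, the unnamed gene 3830417A13Rik at 0.142 and Fndc3c1 at 0.168. Thbs1, the matricellular thrombospondin, lay at 0.183 and Cald1, the actin-binding caldesmon, at 0.192. Gbp2b had signals of 9.35, 9.57 and 9.68 in Panct1 knockdown, against 7.36, 7.21 and 7.50 in control. Gbp2 and Gbp2b are close paralogues whose probes may share transcripts, and for Thbs1 the lower of its 2 probe sets differed by 1.12. The 5 probe sets of Cald1 ran from -0.10 to 2.23, with 4 past the threshold, and the mean of its probe sets differed by 1.24 where the brightest differed by 2.03. The measure reads size and direction over 6 arrays of 2 groups and says nothing of shared control.

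**Figure D4:**
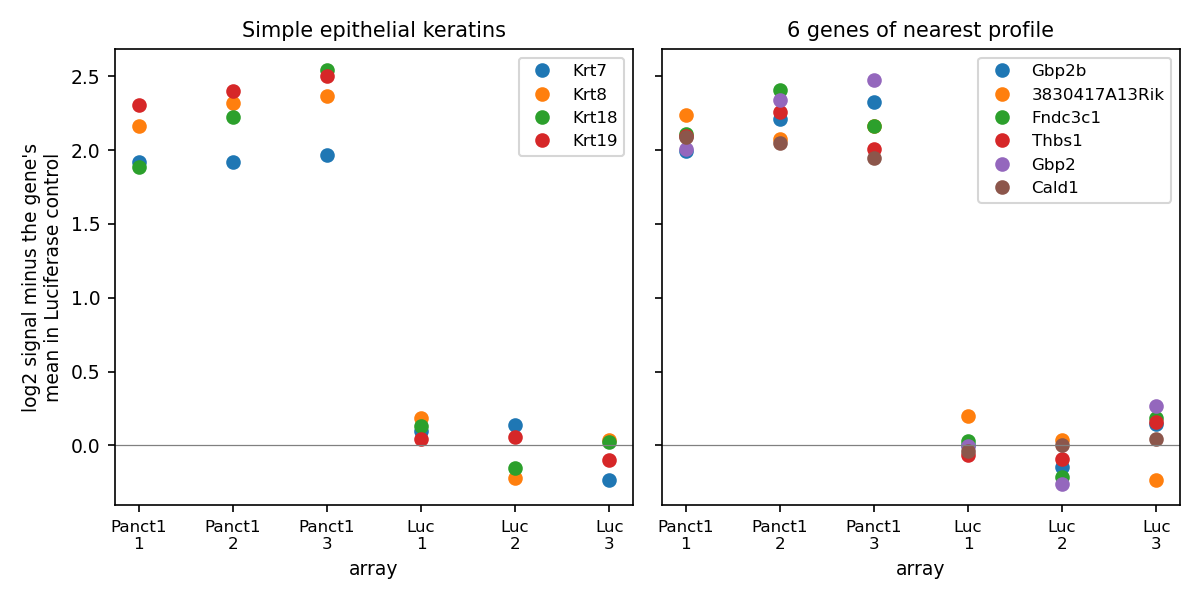
Log2 signal minus the gene's mean in Luciferase control (vertical axis) on each array, for the 4 simple keratins (left) and the 6 other genes of nearest profile (right). Points are arrays. Knockdown arrays of Krt18 spread the most among the keratins, and those of Krt7 sit lowest on replicates 2 and 3.

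Markers of cell types that carry these keratins, or that such a culture could hold, were counted in the same fit, and their part in the keratin result was not tested. Over all genes 12.9% rose and 11.3% fell (24.2% in all). Each list holds only 9 to 16 measured genes, so its counts are given as a description beside those shares. Of 12 measured trophectoderm markers 6 rose and 0 fell by limma (7 and 0 at an unadjusted p under 0.05), and their mean signal was 6.90 to 7.06 on the Panct1 knockdown arrays and 6.56 to 6.57 on the control arrays. Cited1, a transcriptional coregulator of the placenta, rose by 1.10, and Cdx2 and Tfap2c rose as above. Cdx2, Tfap2c, Gata3 and Tead4 are counted as risen both here and among the transcription factors above, so these counts overlap. Elf5 and Tpbpa, markers of trophoblast stem cells and of spongiotrophoblast, lay below the lower quartile in both groups, at 4.31 and 4.52 in Panct1 knockdown and 4.50 and 4.54 in control. Of 16 markers of primitive and parietal endoderm, which also carry Krt8 and Krt18, 4 rose and 5 fell. Amn rose by 0.65 and Sparc by 0.34, Sparc not past the threshold as a mean of its 3 probe sets (0.104), while Lama1 fell by 0.50. The other called genes are named here after their values were seen. Cubn fell by 1.03, Gata6 by 0.40, Sox17 by 0.33 and Apoe by 0.30, while Dab2 and Lamb1 each rose by 0.26. The mean signal of this list was 7.51 to 7.68 on the Panct1 knockdown arrays and 7.62 to 7.65 on the control arrays.

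Of 9 mesothelial markers 3 rose and 2 fell. Msln rose by 0.62 and Gpm6a by 0.78 (0.51 without probe sets that may cross-hybridise). Gpm6a was dim, with a mean of 4.71 in Panct1 knockdown and 3.93 in control, the latter below the lower quartile of every array. Wt1, the regulator of mesothelium and kidney, fell by 1.27 to 6.17 ± 0.082 in Panct1 knockdown, against 7.44 ± 0.20 in control (SD, n = 3 each). The mean signal of this list was 5.73 to 5.76 on the Panct1 knockdown arrays and 5.62 to 5.67 on the control arrays. Of 9 markers of stratified epithelium Perp, a desmosome-associated protein, rose by 1.12 and Lor, of the cornified envelope, by 0.44, with 0 falling (1 at an unadjusted p under 0.05 in limma, Krt5). That list averaged 6.78 to 6.81 on the Panct1 knockdown arrays and 6.66 to 6.72 on the control arrays. Of 10 fibroblast markers 4 rose and 0 fell in limma (0 lower at an unadjusted p under 0.05), among them Twist2 by 0.61, Col3a1 by 0.63 (0.37 as the mean of its probe sets) and Col1a1 by 0.28, with means of 6.11 to 6.18 in Panct1 knockdown and 5.93 to 6.02 in control. Col3a1 averaged 4.50 in control, below the lower quartile of every array. The call for Col1a1 was lost in 6 of 13 settings (0.0207 to 0.0767), among them without Panct1 knockdown replicate 3 or any 1 control array. Of the 10 embryonic stem cell markers 5 fell and 0 rose by limma (1 higher at an unadjusted p under 0.05, Nanog), with Fgf4 falling by 0.92, Zfp42 by 0.42 and Esrrb by 0.50.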

How the data were processed

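Affymetrix Mouse430 version 2 arrays of 6 samples gave 1 deposited log2 value per probe set, made by the authors with GCOS 1.4 and RMA per the submitters' processing notes. RMA corrects background, quantile-normalises and summarises probes, and can shrink changes of dim probe sets. Which arrays were normalised together was not given in the sources used here. Groups and replicate numbers came from the titles. Separate cultures are not stated, so the spread behind each p-value may be technical. No pair of arrays shared over 3.20% of values.

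Of 45101 probe sets, 64 controls were left out. Of the other 45037, 34945 had 1 symbol, 932 had several and 9160 had none listed. Symbols of 34741 were updated by gene ID through a RefSeq table (GRCm38.p6). The brightest probe set stood for each of 18193 genes. limma 3.58.1 (R 4.3.3, statmod 1.5.0; lmFit, eBayes, group only, two-sided) was fitted over all genes or probe sets with Benjamini-Hochberg adjustment, at an adjusted p under 0.05. On simulated data it called 16% of genes shifted by 0.3 and 88% of those shifted by 0.6. Differences as small as those of the other keratin genes could thus go uncalled. SEs of the keratins are from the limma fit to the arrays, and those of pair differences from the arrays' variances. The members and lists were chosen with earlier results of these data known. Besides the keratins, the text names called keratin genes, the 4 genes of smallest p in each list, 3 per marker list, the 6 nearest profiles and Pou5f1, Sox2 and Nanog. The alternatives were a replicate block, median centring, repeated quantile normalisation, a variance trend, a filter on dim probe sets, the mean of probe sets, removal of cross-hybridising probe sets and leaving out each array.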

Additional observations from a re-analysis of the deposited data

How the results depend on the processing

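Replicate numbers did not pair the arrays: deviations from the group means correlated at -0.158, -0.302 and -0.150 between arrays of the same number, and 0 of 6 arrays correlated best with its own number. Panct1 knockdown replicates 1, 2 and 3 correlated best with Luciferase control replicates 2, 3 and 1, at 0.258, 0.308 and 0.163. Whether the arrays share batches in that order was not tested. With the replicate block 3496 genes were called in place of 4404, and 4692 probe sets in place of 6565. On leaving out 1 array the count of probe sets was 4266 (without Luciferase control replicate 1) to 5574, that of other keratin genes 2 to 4, and that of neighbouring genes 3 to 5, with the keratin and neighbour counts of all 6 arrays at 4 and 5. Of 53 named genes, 50 passed and 40 of these kept the call in all settings run for them. The difference of each keratin probe set kept its direction and stayed within 1 SD of its value in every alternative run for it, with 1.82 to 2.00 for Krt7, 2.05 to 2.38 for Krt18, 2.35 to 2.45 for Krt19 and 2.17 to 2.38 for the brightest Krt8 probe set over the arrays left out. In a balanced design the replicate block cannot change those values or the pair differences, and the variance model, the filter on dim probe sets and the choice of probe sets do not enter the values of single probe sets. Of the 44 other keratin genes, 7 lay below the lower quartile in both groups, and whether dim signal limited their calls was not tested.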
